A study of Mus musculus with 10 samples.

Results

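The MHC class I presentation genes are 10 mouse genes that make, load and switch on the peptide display of MHC class I: H2-K1, H2-D1, B2m, Tap1, Tap2, Tapbp, Psmb8, Psmb9, Psmb10 and Nlrc5. They were taken by symbol, and all 10 were found among the 49164 genes with a value in the deposited count table. In RefSeq on GRCm38.p6, 7 lie on chromosome 17, Psmb10 and Nlrc5 lie on chromosome 8, and B2m lies on chromosome 2. RNA selected for poly(A) tails was measured in gum epithelium of mice, lifted off with the protease Dispase and divided into the palatal side (facing the palate) and the buccal side (facing the cheek). There were 5 palatal and 5 buccal libraries. All share this peeling step, and the labels give no strain, age, sex, treatment or microbial status. The series' design text speaks of pooled germ-free and SPF mice, and the labels of these 10 libraries name neither. Whether each library stands for its own animal is not stated in the labels. The p-values therefore measure only the spread among these libraries, and that spread may be technical.

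Class I molecules carry short peptides from the inside of a cell to its surface, where CD8 T cells and natural killer cells read them. Proteasomes cut the peptides, and an interferon-inducible form, the immunoproteasome, swaps its catalytic subunits for Psmb8, Psmb9 and Psmb10. The Tap1 and Tap2 transporter pumps peptides into the endoplasmic reticulum, where tapasin (Tapbp) helps to load them onto a heavy chain such as H2-K1 or H2-D1 paired with the light chain B2m. Nlrc5 is the transactivator of class I genes, and it acts at their promoters together with RFX, CREB and NF-Y factors. Interferons raise the whole pathway in most nucleated cells, epithelial cells included.

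The promoters of the light chain and of both heavy chains are shown because these genes carried the highest levels and their control elements are well known. Each is the 250 bases before the gene's start on the gene's own strand, from RefSeq on GRCm38.p6. The windows are chr17:34000348-34000597 on the minus strand for H2-K1, chr17:35262844-35263093 on the plus strand for H2-D1 and chr2:122147437-122147686 on the plus strand for B2m. Capitals mark matches to an NF-kB pattern (GGGA, 4 free bases, CC) and to 2 interferon response patterns, GAANNGAAA and the longer ISRE (GAAA, 2 free bases, GAAA), searched on both strands.
H2-K1: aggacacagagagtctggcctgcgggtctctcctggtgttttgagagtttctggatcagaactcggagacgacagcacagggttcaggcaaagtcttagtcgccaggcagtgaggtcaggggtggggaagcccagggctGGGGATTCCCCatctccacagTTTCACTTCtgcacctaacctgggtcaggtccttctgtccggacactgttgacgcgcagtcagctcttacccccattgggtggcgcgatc
H2-D1: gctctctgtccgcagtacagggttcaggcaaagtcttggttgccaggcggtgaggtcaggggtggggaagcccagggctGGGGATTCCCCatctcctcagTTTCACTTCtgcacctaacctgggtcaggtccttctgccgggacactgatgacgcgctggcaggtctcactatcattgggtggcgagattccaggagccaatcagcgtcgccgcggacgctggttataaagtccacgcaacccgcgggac
B2m: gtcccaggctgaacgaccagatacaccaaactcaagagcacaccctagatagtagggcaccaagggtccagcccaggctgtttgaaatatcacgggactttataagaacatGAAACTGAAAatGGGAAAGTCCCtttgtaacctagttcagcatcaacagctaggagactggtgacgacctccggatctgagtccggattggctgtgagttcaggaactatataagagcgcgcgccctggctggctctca
The H2-K1 and H2-D1 windows were identical at 166 of 190 aligned bases (87.4%), and both hold GGGGATTCCCC followed by TTTCACTTC, a GAANNGAAA match on the opposite strand. In B2m the order is reversed, with GAAACTGAAA before GGGAAAGTCCC. In each of the 3 promoters the NF-kB capitals are 2 overlapping matches, 1 per strand. The promoter table held 8 of the 10 genes, and Tap2 and Nlrc5 were without an entry. The NF-kB pattern was found in 3 of these 8 and in 17.4% of all 27025 promoters of the same length. GAANNGAAA was found in 2 of 8 (6.35% of all) and the ISRE in 1 of 8, B2m (3.05%). GAS was found in 1 of 8, Psmb8 (7.14% of all). TGACG, a CREB half-site, was found in 5 of 8 (17.8% of all) and CCAAT, the NF-Y box, in 6 of 8 (34.5%). Psmb9 and Tap1 start back to back, so their matches to TGACG and CCAAT are the same bases and count once. A match is a description of letters, not a shown binding site.

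All 10 class I presentation genes were lower in palatal than in buccal epithelium. Falls ran from 1.60-fold for Tapbp to 4.96-fold for Psmb8, and B2m, the light chain that every class I molecule needs, was 4.94-fold lower. For each of the 10 genes the highest palatal library lay below the lowest buccal library. Of all 14062 genes tested, 38.9% were called in either direction, 20.3% lower in palatal and 18.7% higher, and 14.7% had all 5 palatal libraries below all 5 buccal ones. The median log2 fold change was -1.65 over the 10 genes and 0.01 over all tested genes. Calls are genes with an adjusted p under 0.05 in the quasi-likelihood F-test of edgeR, with adjustment over all tested genes by the Benjamini-Hochberg method. Levels are CPM, counts scaled to library depth, with TMM, a factor that evens out libraries of different makeup. Total counts were 25868777 to 35583168 in palatal and 29317011 to 37234192 in buccal libraries, and the lowest count of any of the 10 genes in any library was 38. Fewer cells of a type and less RNA per cell cannot be told apart in such bulk samples.

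**Figure D1:**
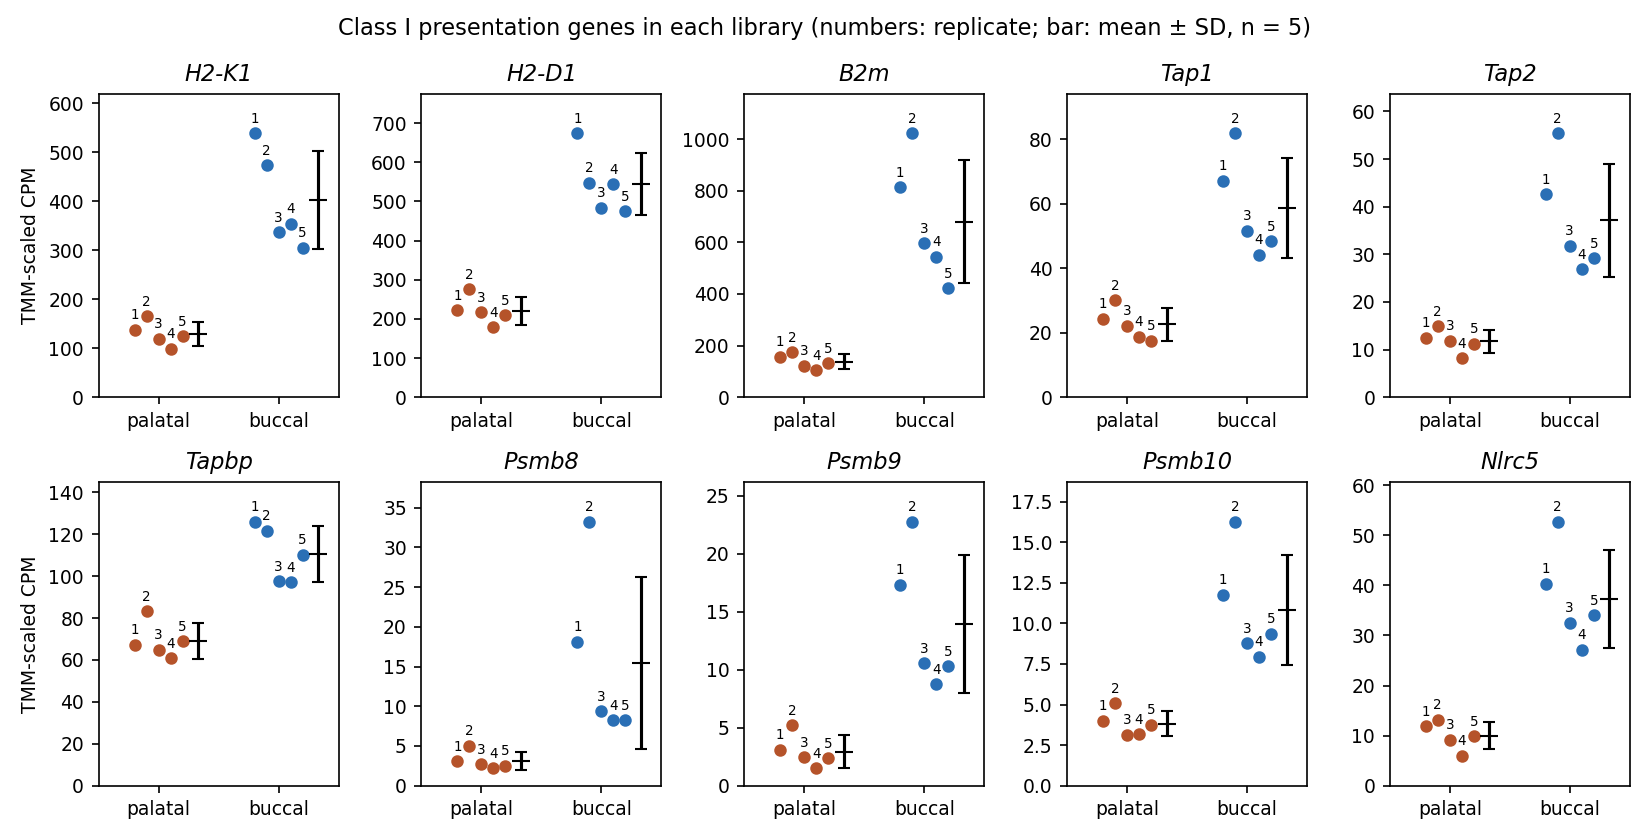
TMM-scaled CPM of each of the 10 genes (vertical axes start at 0 and differ between panels) in 5 palatal (left, orange) and 5 buccal (right, blue) libraries, numbered by replicate, with the mean ± SD. In every panel all palatal points lie below all buccal points, and palatal library 2 is the highest of its side.

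The heavy chains are the polymorphic part of the class I molecule that holds the peptide. H2-K1 (ENSMUSG00000061232) had 138, 165, 119, 99.0 and 124 CPM in palatal libraries 1 to 5, against 539, 474, 336, 354 and 305 CPM in buccal libraries 1 to 5. The sides were well apart, with buccal libraries 1 and 2 above the other buccal ones. The log2 fold change of H2-K1 was -1.64 ± 0.17 (SE, n = 5 per side, edgeR adjusted p = 8.02e-06). H2-D1 (ENSMUSG00000073411) had 222, 276, 218, 178 and 209 CPM in palatal libraries, against 675, 548, 484, 544 and 475 CPM in buccal libraries. Its fold change was the smaller of the pair, -1.30 ± 0.12 on the log2 scale (edgeR adjusted p = 6.91e-07), with the tightest buccal values after Tapbp. The heavy chain genes resemble each other and the H2-Q genes in sequence and differ between mouse strains, so the division of reads among them is uncertain.

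B2m, the invariant light chain beta-2 microglobulin (ENSMUSG00000060802), had 157, 175, 122, 105 and 131 CPM in palatal libraries, against 815, 1023, 595, 544 and 423 CPM in buccal libraries. The lowest buccal library stood 2.42 times above the highest palatal one, the widest gap among the 10 genes. Its log2 fold change was -2.30 ± 0.24 (edgeR adjusted p = 1.95e-05), and 0.619% of all tested genes had a more negative one. B2m is also the partner of the nonclassical class I chains and of class I-like molecules such as CD1 and the neonatal Fc receptor.

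The transporter genes Tap1 and Tap2 encode the paired chains of 1 pump. Tap1 (ENSMUSG00000037321) had 24.3, 30.1, 22.2, 18.8 and 17.5 CPM in palatal libraries, against 67.2, 81.9, 51.7, 44.2 and 48.3 CPM in buccal libraries. Tap2 (ENSMUSG00000024339) ran from 8.20 to 14.9 CPM in palatal and from 26.9 to 55.5 CPM in buccal libraries. Buccal library 2 was the highest for both genes. The log2 fold changes were -1.38 ± 0.19 for Tap1 and -1.66 ± 0.21 for Tap2 (edgeR adjusted p = 1.31e-04 and 8.04e-05). Tapbp, the gene of the loading chaperone tapasin (ENSMUSG00000024308), changed least of the 10. It had 67.3, 83.3, 64.9, 60.7 and 68.9 CPM in palatal libraries, against 126, 122, 97.6, 97.0 and 110.2 CPM in buccal libraries. The sides came close, since the lowest buccal value was 1.16 times the highest palatal one. The log2 fold change of Tapbp was -0.68 ± 0.10 (edgeR adjusted p = 5.59e-05).

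The immunoproteasome subunits had the lowest counts of the 10 genes, and Psmb8 and Psmb9 had the widest spread. Psmb8, the beta5i subunit (ENSMUSG00000024338), had 3.04, 5.04, 2.68, 2.19 and 2.49 CPM in palatal libraries, against 18.1, 33.2, 9.37, 8.25 and 8.25 CPM in buccal libraries. Buccal library 2 stood 4.03 times above the lowest buccal library. The log2 fold change was -2.31 ± 0.48 (edgeR adjusted p = 0.00423), and it was -1.82 without buccal replicate 2. Psmb9, the beta1i subunit (ENSMUSG00000096727), had 3.11, 5.23, 2.45, 1.51 and 2.38 CPM in palatal libraries, against 17.3, 22.8, 10.6, 8.73 and 10.3 CPM in buccal libraries (log2 fold change -2.23 ± 0.36, edgeR adjusted p = 7.14e-04). Psmb10, the beta2i subunit (ENSMUSG00000031897), ran from 3.13 to 5.07 CPM in palatal and from 7.94 to 16.3 CPM in buccal libraries (log2 fold change -1.50 ± 0.20, edgeR adjusted p = 4.10e-05).

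Nlrc5, the class I transactivator (ENSMUSG00000074151), had 11.9, 13.1, 9.16, 5.97 and 9.84 CPM in palatal libraries, against 40.3, 52.7, 32.5, 27.1 and 34.0 CPM in buccal libraries. The lowest buccal library was 2.07 times the highest palatal one, the second widest gap after B2m. Its log2 fold change was -1.90 ± 0.22 (edgeR adjusted p = 3.36e-05).

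**Figure D2:**
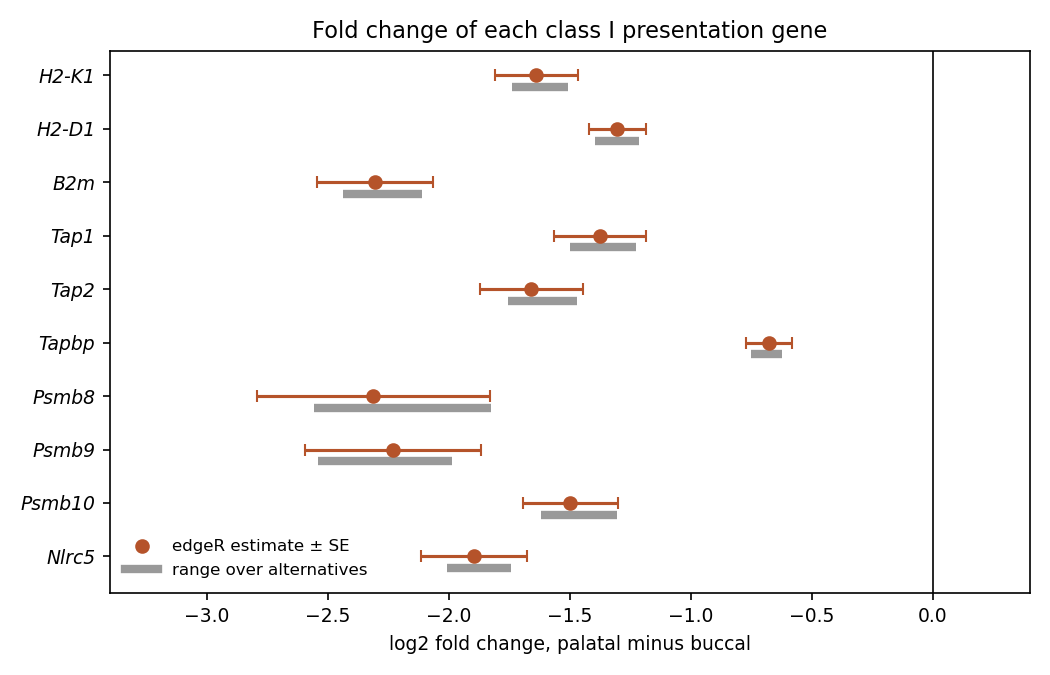
Log2 fold change (palatal minus buccal, horizontal axis) of each gene with its SE (orange) and the range over the alternative analyses (grey). All estimates and ranges lie below 0, from -0.68 for Tapbp to -2.31 for Psmb8.

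Levels per length were compared with reads per kilobase of exon (RPKM), using exon lengths of GENCODE M21 basic transcripts on GRCm38. In palatal libraries the order was B2m (160.2 ± 32.5 RPKM, SD, n = 5), H2-D1 (105 ± 16.9 RPKM), H2-K1 (77.9 ± 14.7 RPKM), Tapbp (23.8 ± 2.96 RPKM) and Tap1 (7.64 ± 1.69 RPKM), with the others at 3.41 RPKM or less. The ranges of B2m and H2-D1 overlapped there, as did those of H2-D1 and H2-K1. In buccal libraries B2m reached 791 ± 277 RPKM and did not overlap H2-D1 (259 ± 37.9 RPKM), while H2-D1 and H2-K1 (243 ± 60.3 RPKM) overlapped. From Tap2 down to Nlrc5, every neighbour in the order overlapped the next on both sides. Nlrc5 was last on both sides, at 1.23 ± 0.339 RPKM in palatal and 4.60 ± 1.21 RPKM in buccal libraries.

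The inducible subunits were then set against the constitutive ones whose places they take. All 3 constitutive catalytic genes were called lower, but by little: Psmb5 by -0.35 ± 0.10, Psmb6 by -0.22 ± 0.07 and Psmb7 by -0.20 ± 0.06 on the log2 scale (edgeR adjusted p = 0.00948, 0.0169 and 0.0240). Without palatal replicate 5 only 1 of the 3 passed. The ratio of Psmb8 to Psmb5 CPM was 0.0621, 0.0899, 0.0510, 0.0434 and 0.0586 in palatal libraries, against 0.247, 0.606, 0.169, 0.116 and 0.128 in buccal libraries. The sides did not overlap, and the log2 ratio was 1.81 lower in palatal. The log2 ratio of Psmb9 to Psmb6 averaged -5.16 ± 0.70 in palatal and -3.11 ± 0.62 in buccal libraries (SD, n = 5), a difference of -2.05. The log2 ratio of Psmb10 to Psmb7 averaged -4.39 ± 0.35 in palatal and -3.11 ± 0.43 in buccal libraries, a difference of -1.28. Each difference had an exact two-sided permutation p of 0.00794, the smallest that 5 against 5 allows (0.00794 after Benjamini-Hochberg adjustment over the 3 ratios), and each ratio was lower in all 5 palatal libraries. Each inducible gene alone already separated the sides, and its counterpart changed little. A low p could thus be foreseen and adds little to the fold changes. Such ratios show unequal change between sides, not how much of each protein is in a proteasome.

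**Figure D3:**
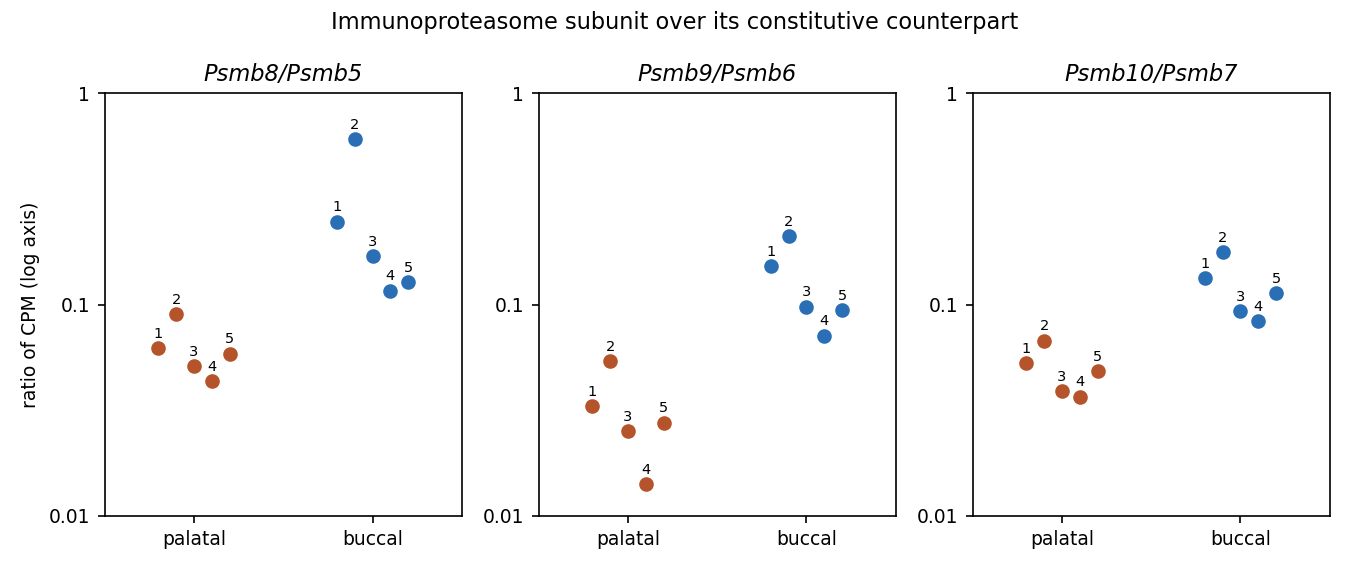
Ratio of CPM of each immunoproteasome subunit to its constitutive counterpart (log axis) in palatal (left) and buccal (right) libraries, numbered by replicate. No palatal ratio reaches a buccal one, and buccal library 2 stands highest in each panel, at 0.606 for Psmb8/Psmb5.

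The rest of the class I pathway was read from fixed lists. Of 18 nonclassical class I heavy chains and class I-like genes 12 were tested, and 10 were lower and 0 higher in palatal. The list's median was -1.53 on the log2 scale. H2-Q4 had 9.90 ± 3.36 CPM in palatal and 34.0 ± 14.3 CPM in buccal libraries (SD, n = 5). H2-T22 had 34.2 ± 5.59 CPM in palatal and 98.1 ± 8.94 CPM in buccal libraries (log2 fold change -1.52 ± 0.10). H2-T23, the mouse Qa-1 chain that NK cell receptors read, fell less, by 0.61 ± 0.08 on the log2 scale, as did Mr1, which presents microbial vitamin B metabolites to MAIT cells, by 0.55 ± 0.09. H2-Q6 and H2-Q7 are close copies, so their separate values are uncertain. The class I-like genes Cd1d1 and Fcgrt did not pass (log2 fold changes 0.35 ± 0.18 and -0.09 ± 0.15). Some of the 12 had few palatal counts and could enter the test through buccal libraries alone, which favours falls.

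Peptide trimming and loading genes mostly did not pass. Of 14 tested, 4 were lower and 0 higher (1 was higher in DESeq2, in limma-voom and without buccal replicate 2, and 2 with a replicate block), and the list's median was -0.10 on the log2 scale. The 4 were Tpp2 (-0.98 ± 0.10) and Blmh (-0.81 ± 0.10), cytosolic peptidases, Erap1 (-0.76 ± 0.10), the trimming peptidase of the endoplasmic reticulum, and Tapbpl (-0.71 ± 0.13), a tapasin relative. The general chaperones of the loading complex had log2 fold changes of -0.21 ± 0.09 for Calr, -0.10 ± 0.07 for Canx and -0.14 ± 0.08 for Pdia3 (edgeR adjusted p = 0.0788, 0.284 and 0.200). In the list of the PA28 cap and proteasome assembly 3 of 8 fell. Psme1 and Psme2, the interferon-inducible PA28 chains, fell by 0.59 ± 0.10 and 0.72 ± 0.08, and the assembly factor Pomp by 0.23 ± 0.08. Psme3, the nuclear PA28 chain, had a log2 fold change of -0.09 ± 0.06 (edgeR adjusted p = 0.227).

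The remaining proteasome genes differed by much less than the inducible subunits. Of 11 other 20S core genes 5 were lower and 0 higher (median log2 fold change -0.17). That count was 3 without palatal replicate 1, 3 or 5 or buccal replicate 4, and 8 without palatal replicate 4. Of 17 genes of the 19S cap 7 were lower and 1 higher (median -0.18), and with no filter on low counts 2 were lower. The largest fall in these lists was that of Psmb2, by 0.40 ± 0.06. The 1 that rose was Psmd8, by 0.24 ± 0.08, and its call was lost without palatal replicate 1, 4 or 5 or buccal replicate 1, 2 or 5, or replicate 2 of both sides.

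**Figure D4:**
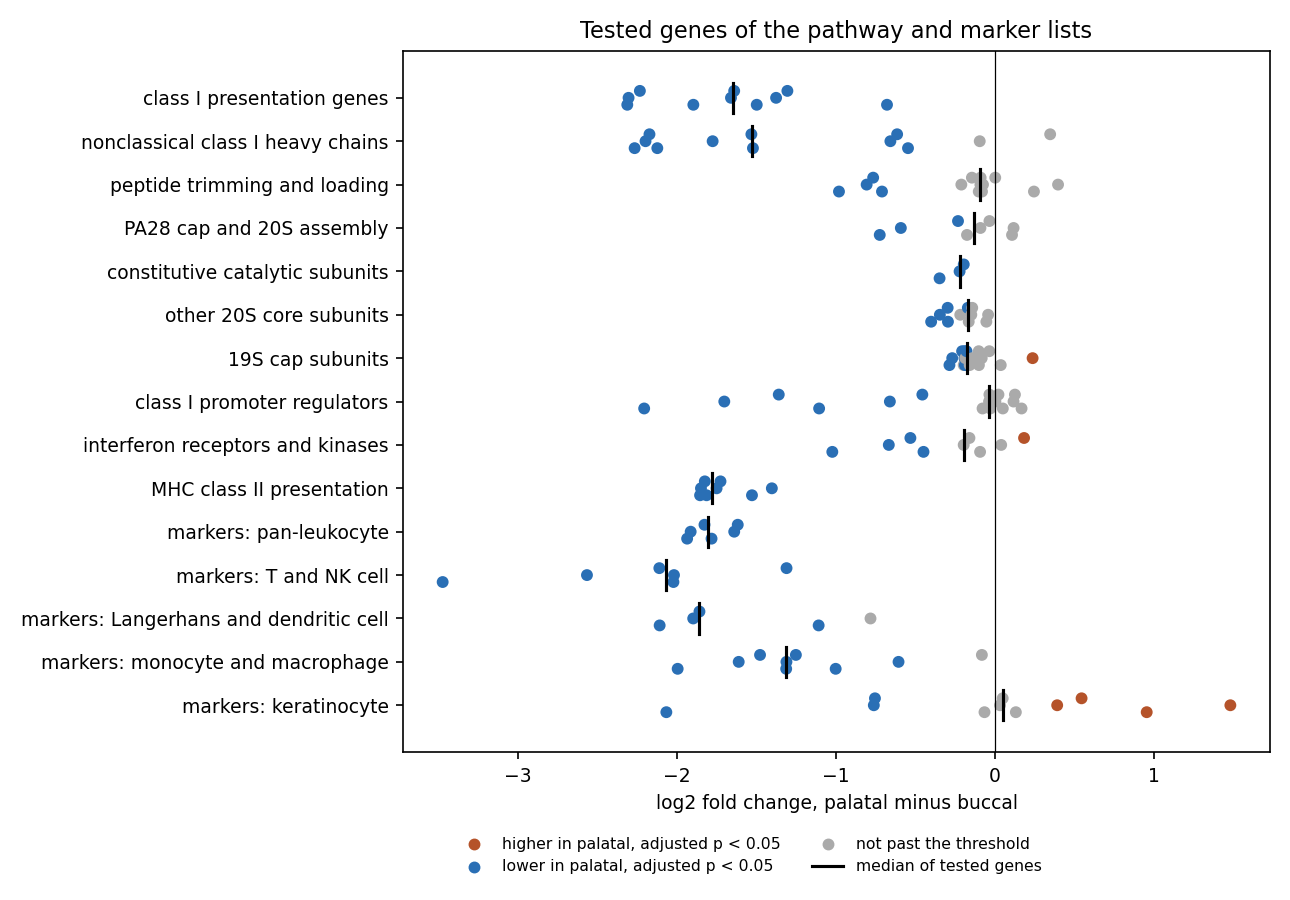
Log2 fold change (palatal minus buccal, horizontal axis) of each tested gene by list, blue where lower, orange where higher and grey where not past the threshold, with the list median as a black bar. The class I presentation genes have a median of -1.65, while the medians of the other 20S core and 19S cap lists are smaller falls, -0.17 and -0.18. In these lists 5 of 11 and 7 of 17 genes were called lower, against 20.3% of all tested genes.

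Among genes that act on class I promoters, 4 IRF genes and Stat2 were lower and the RFX, NF-Y, CREB and NF-kB genes did not pass the test. Of 16 tested 6 fell and 0 rose (1 rose without replicate 2 of both sides), and the median was -0.04 on the log2 scale. Irf1, an interferon-induced activator of class I, Tap1 and Psmb9, had 5.79 ± 1.67 CPM in palatal and 18.9 ± 9.09 CPM in buccal libraries (SD, n = 5). Its fall was 1.70 ± 0.30 on the log2 scale (SE; adjusted p = 0.00117 by edgeR). Stat2 was 2.56-fold lower. Irf9 fell by 0.66 ± 0.07, Irf2 by 0.46 ± 0.11 and Irf8, at a mean of 0.594 CPM in palatal and 2.75 CPM in buccal libraries, by 2.20 ± 0.47. With as few as 9 counts in a palatal library, Irf8 could enter the test through buccal libraries alone, which favours a fall. The RFX genes that Nlrc5 works with had log2 fold changes of -0.04 ± 0.10 for Rfx5, 0.12 ± 0.08 for Rfxap and -0.03 ± 0.13 for Rfxank. The 3 NF-Y genes stood between -0.08 and 0.02, Creb1 at 0.17 ± 0.08, and the NF-kB genes Rela and Nfkb1 at 0.00 ± 0.07 and 0.13 ± 0.08. None of these 9 passed the threshold, nor did Atf1.

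The signals upstream were thinly covered. Of 7 interferon and TNF ligand genes 1 was tested, and Tnf fell by 1.32 ± 0.29, at 0.473 ± 0.171 CPM in palatal and 1.20 ± 0.403 CPM in buccal libraries (SD, n = 5). Tnf had as few as 7 counts in a palatal library and could enter the test through buccal libraries alone, which favours a fall. With no filter 2 ligand genes were called lower, and none was with at least 1 CPM in 5 libraries. Ifng, the main inducer of the immunoproteasome, was too low to test, at 0.0253 ± 0.0274 CPM in palatal and 0.180 ± 0.0919 CPM in buccal libraries. Of 9 receptor and kinase genes 4 fell and 1 rose. Both chains of the interferon gamma receptor fell, Ifngr1 by 0.53 ± 0.10 and Ifngr2 by 0.67 ± 0.10, along with Il10rb by 0.45 ± 0.08 and the kinase gene Jak2 by 1.02 ± 0.10. The type I receptor genes Ifnar1 and Ifnar2 had log2 fold changes of 0.04 ± 0.07 and -0.20 ± 0.12. The kinase gene Jak1 rose by 0.18 ± 0.07, a call lost without palatal replicate 1, 3 or 5 or buccal replicate 1, 4 or 5, with library totals in place of TMM, with no filter and with a replicate block.

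The 10 genes varied together from library to library. Palatal library 2 was the highest of its side for all 10 genes, and palatal library 4 the lowest for 8. On the buccal side library 2 was the highest for 7 genes and library 1 for the other 3, H2-K1, H2-D1 and Tapbp. After centring each gene on its mean over the 10 libraries, the mean of the 10 genes was -0.71, -0.36, -0.92, -1.24 and -0.92 log2 units in palatal libraries 1 to 5, against 1.13, 1.39, 0.61, 0.49 and 0.53 in buccal libraries 1 to 5. The coefficient of variation had a median of 20.5% over the 10 genes in palatal and 28.8% in buccal libraries. Over the 9740 tested genes with a mean of at least 5 CPM it was 8.89% in palatal and 9.14% in buccal libraries. Without replicate 2 of both sides all 10 genes were still called lower.

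Of 9508 named genes with a mean of at least 5 CPM, the 8 whose library profile lay nearest to the mean profile of the 10 included 3 other MHC genes. They were H2-Q4 (root mean square difference 0.159 log2 units over the 10 libraries), Cd74 (0.170), Laptm5 (0.175), Ly6e (0.175), H2-Aa (0.187), Lcp1 (0.189), Ube2l6 (0.220) and H2-Eb1 (0.225). Cd74, H2-Aa and H2-Eb1 serve class II presentation, Laptm5 and Lcp1 are leukocyte genes, and Ly6e and Ube2l6 are interferon-inducible. For scale, the 10 genes themselves lay 0.0749 (Tap2) to 0.532 (Tapbp) log2 units from their own mean. Profiles were centred over both sides, so nearness reflects a like fold change between sides as well as variation within a side.

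Markers of several leukocyte types were lower in palatal too. All 6 pan-leukocyte markers fell (median -1.80 on the log2 scale). Their summed level was 8.34 to 12.1 CPM in palatal and 27.2 to 43.9 CPM in buccal libraries. Of 14 listed T and NK cell markers 13 had a value, and only 6 had enough counts to test. Each of the 6 fell, with summed levels of 1.89 to 2.58 CPM in palatal and 5.48 to 9.71 CPM in buccal libraries. Of the 6, Nkg7, Klrd1, Cd2 and Cd4 had at most 10 counts in any palatal library, and Cd3g at most 14. These genes could enter the test through buccal libraries alone, which favours falls. The NK cell gene Ncr1 had no palatal count. With no filter 12 T and NK cell markers were called lower, and none was with at least 1 CPM in 5 libraries. Of 8 Langerhans and dendritic cell markers 5 were tested and 4 fell (2 with at least 1 CPM in 5 libraries). The list summed to 3.54 to 5.37 CPM in palatal and 12.3 to 20.6 CPM in buccal libraries. Of the 4, Zbtb46 had at most 5 counts in any palatal library and Flt3 as few as 6. Both could likewise enter the test through buccal libraries alone. Of 11 monocyte and macrophage markers 9 were tested and 8 fell, and the list's sum averaged 18.3 CPM in palatal and 38.4 CPM in buccal libraries. The 8 tested of 10 class II presentation genes fell too (median -1.78). Among these 2 lists, Adgre1 had as few as 6 counts in a palatal library and H2-DMb2 as few as 10. They too could enter the test through buccal libraries alone, which favours falls.

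The 10 class I presentation genes summed to 482 to 773 CPM in palatal and 1453 to 2429 CPM in buccal libraries. Library 2 was the highest of its side both for the mean of these genes and for that of the pan-leukocyte markers, at -0.36 and -0.54 log2 units in palatal and 1.39 and 1.28 in buccal. In palatal library 4, the lowest for these genes, the means were -1.24 and -0.89. The other leukocyte lists differed in order. The T and NK cell mean was highest in palatal library 1 (-0.79) and buccal library 4 (1.20). The Langerhans and dendritic cell mean was highest in palatal library 5 (-0.28) and buccal library 2 (0.92). The monocyte and macrophage mean was highest in library 2 of both sides (-0.15 and 1.14). How much of the class I difference comes from leukocytes was not tested. Keratinocyte markers were abundant on both sides, at 79801 to 88231 CPM in palatal and 131011 to 151398 CPM in buccal libraries, with 4 of 11 higher and 3 lower. Krt13 averaged 34485 CPM in palatal and 58433 CPM in buccal libraries, and Krt4 13842 and 57940 CPM. The difference in the sum therefore follows Krt13 and Krt4, not keratinocyte markers in general. Among basal genes Krt14 and Krt15 were higher in palatal, by 0.96 ± 0.13 and 1.48 ± 0.16 on the log2 scale, and Krt5 and Trp63 had values of -0.06 ± 0.09 and 0.13 ± 0.10. The suprabasal keratin genes Krt4 and Krt13 fell by 2.07 ± 0.12 and 0.76 ± 0.10. Of 8 neutrophil markers 3 were tested and Cxcr2 fell (2 fell with a replicate block, in DESeq2, in limma-voom and without buccal replicate 4). The list's summed levels were 19.7 to 48.4 CPM in palatal and 34.6 to 92.8 CPM in buccal libraries. The untested genes had few counts on both sides. Ly6g and Elane had 0 palatal and 2 buccal counts each. Mpo had 7 palatal and 8 buccal counts, Csf3r 17 and 15, and Retnlg 4 and 7. Of 7 fibroblast markers 4 were tested and Dcn rose, with summed levels of 70.1 to 89.2 CPM in palatal and 6.82 to 12.9 CPM in buccal libraries. Dcn alone averaged 73.2 CPM in palatal and 6.60 CPM in buccal libraries, and the collagen genes Col1a1, Col1a2 and Col3a1 had log2 fold changes of -0.34 ± 0.30, 0.22 ± 0.29 and -0.07 ± 0.43. Of 7 endothelial markers 2 were tested and Vwf fell (2 fell with no filter), with sums of 3.22 to 8.12 CPM in palatal and 4.60 to 8.30 CPM in buccal libraries.

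**Figure D5:**
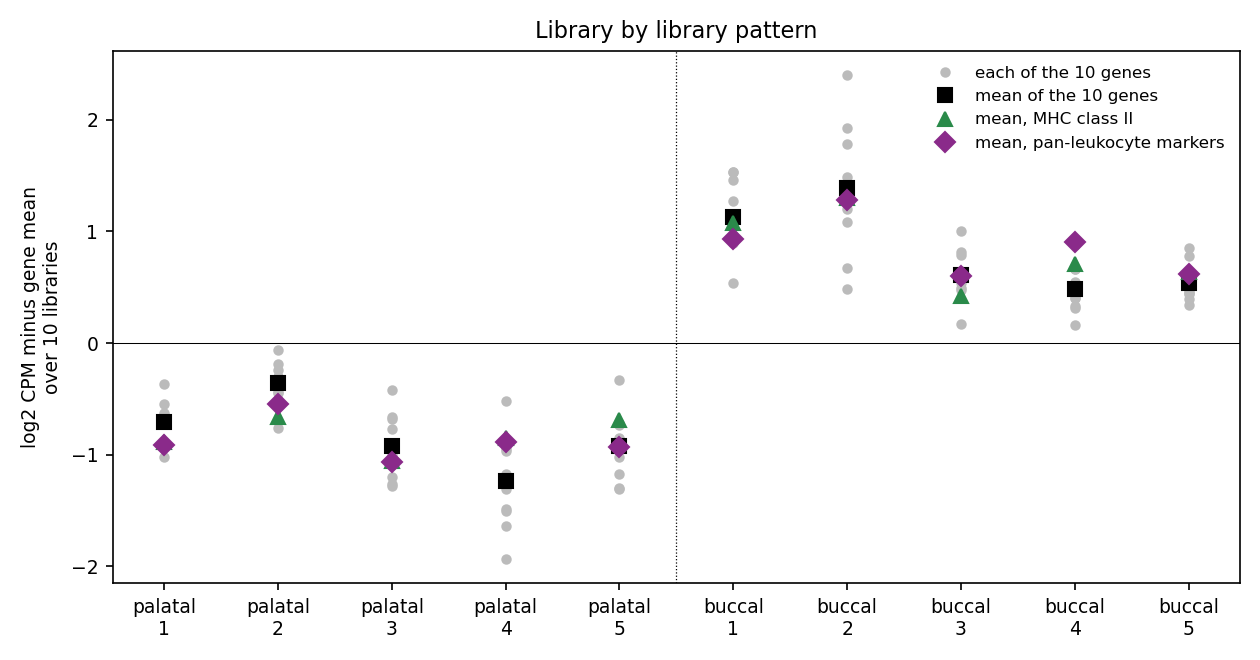
Log2 CPM centred on each gene's mean over the 10 libraries (vertical axis) by library (horizontal axis), for each of the 10 genes (grey), their mean (black squares), the mean of 8 class II genes (green triangles) and of 6 pan-leukocyte markers (purple diamonds). All 3 means lie below 0 in palatal and above 0 in buccal libraries, and library 2 is the highest of its side for each. It stands at -0.36 palatal and 1.39 buccal for class I, and at -0.54 and 1.28 for the pan-leukocyte markers. For class II it stands at -0.67 and 1.30, with palatal library 5 close, at -0.69.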

How the data were processed

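Poly(A) RNA of 5 palatal and 5 buccal libraries was sequenced as single-end reads from a stranded kit, per the labels' protocols. GRCm39, HTSeq 2.01, TopHat2 2.1.1, cutadapt 2.10 and DESeq2 1.36.0 are listed without roles in the submitters' processing notes. How reads were counted, and with which strand setting, is not given in the sources used here. Per the file headers, each gene of the deposited table has a raw count for each library beside the authors' DESeq2-normalized values, a signal equal to the count divided by 1 factor per library. The table lists 55414 genes, and the 6250 with no value for any library were not used.

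Counts were filtered with filterByExpr (minimum count 10; 14062 genes left), scaled by TMM and compared, palatal minus buccal, by edgeR's robust quasi-likelihood F-test with Benjamini-Hochberg adjustment (edgeR 4.0.16, limma 3.58.1, DESeq2 1.42.0, R 4.3.3). The SE was taken as the size of the log2 fold change over the root of F. Libraries of 1 side differed by more than sampling noise (chi-square 8.32 to 64.7 per degree of freedom). Subunit ratios were compared by exact permutation. Promoters and exon lengths are of GRCm38, not the authors' build, and served only for sequences, RPKM and overlaps. Genes named were the 10, members of fixed lists and the 8 nearest profiles. Some genes of the lists are not reported here. Members and lists were chosen with earlier results of these data known.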

Additional observations from a re-analysis of the deposited data

Results flagged for a closer look

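Of 26 groups of 5 libraries checked (each gene and each subunit ratio on each side), 1 held a library far from the others, and chance alone flags about 1 in 20 groups. The Psmb8 to Psmb5 ratio of buccal library 2 was 0.606, with the other buccal libraries between 0.116 and 0.247. Its gap to the nearest library was 0.732 of the buccal range, above the critical value of 0.71. Without that library the log2 ratio was 1.42 lower in palatal, against 1.81 lower with it.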

How the results depend on the processing

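All 10 genes were called lower in palatal under each of 18 alternatives: RLE scaling, library totals, no filter, at least 1 CPM in 5 libraries, DESeq2, limma-voom, a replicate block, each library left out, and replicate 2 left out on both sides. The widest range was that of Psmb8, from -2.56 without palatal replicate 2 to -1.82 without buccal replicate 2, with adjusted p up to 0.0134. The count of all genes called ran from 4916 to 5399 with 1 library left out and from 4902 (at least 1 CPM in 5 libraries) to 5679 (no filter) under the others. Library totals moved calls toward palatal-lower (59.9% of calls, against 52.1%).

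The labels do not say whether replicate numbers pair the libraries, and the data do not settle it. Deviations of same-numbered libraries correlated at -0.02 to 0.33 across genes, above 0.1 for 2 of 5 numbers, and 5 of 10 libraries correlated best with their own number. For the mean of the 10 genes, the libraries stood in the same order on both sides. From highest to lowest it was 2, 1, 3, 5 and 4, with palatal libraries 3 and 5 nearly equal (both -0.92). With a replicate block 2875 genes were lower and 2643 higher, against 2850 and 2624 without it. The SE of Psmb8 was then 0.16, against 0.48, and that of Psmb9 0.10, against 0.36. Paired by number, the subunit ratio differences are the same by construction (-1.81, -2.05 and -1.28), and the exact sign-flip p was 0.0625, the smallest that 5 pairs allow, so this test could not pass. With 1 library left out the ratio differences ran from -2.01 to -1.42, from -2.28 to -1.80 and from -1.40 to -1.12. Small list counts that moved are given beside them above.

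Depth limits Psmb9 most, at 38 counts in palatal library 4. On the opposite strand, Gm19412 overlaps 24.9% of Tapbp exon bases, Gm20496 14.7% of those of Psmb8 and Gm15821 14.1% of those of Tap2 in GENCODE M21, and with the strand setting unknown their reads cannot be told apart.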

Other observations

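Ratios between some of these genes were computed after their values had been seen and are given without a test. The ratio of B2m to H2-K1 CPM was 1.07 ± 0.0423 in palatal and 1.67 ± 0.305 in buccal libraries (SD, n = 5), and the sides did not overlap. The ratio of H2-K1 to H2-D1 was 0.582 ± 0.0300 in palatal and 0.730 ± 0.0972 in buccal libraries, with palatal values up to 0.619 and buccal values from 0.643. The ratio of Psmb9 to Tap1, which start back to back, was 0.126 ± 0.0343 in palatal and 0.230 ± 0.0357 in buccal libraries, also with no overlap between sides. Exons of Tap1 and Psmb9 share 212 bases on opposite strands in GENCODE M21 (3.87% of Tap1 and 5.79% of Psmb9). With the strand setting unknown, reads there cannot be told apart. The ratio of Tap1 to Tap2, the paired chains of the pump, was 1.94 ± 0.266 in palatal and 1.60 ± 0.0724 in buccal libraries, and there the sides overlapped.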
